A study of Mus musculus with 6 samples.

Results

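Open chromatin at 8 genes of the NF-kappaB system was followed in activated mouse CD8+ T cells: the subunit genes Nfkb1, Nfkb2, Rel, Rela and Relb, and the inhibitor genes Nfkbia, Nfkbiz and Tnfaip3. An ATAC-seq peak was counted for one of these genes when its summit lay inside the gene body, or when that gene body was the nearest of 21887 protein-coding gene bodies and lay within 100 kb. The genes were listed by name, with earlier results of these data known when the list was written. Overlapping peaks of the 6 libraries were merged into regions, and 187 of the 134174 regions of the series belonged to the 8 genes. The T cells were isolated from mouse spleen by removing other cells and were stimulated with antibodies, 5 µg/mL to CD3 and 1 µg/mL to CD28. Cells of 2 groups were compared. In the first (Res-shFabp7, 3 libraries), the T cells shared a transwell for 48 h with PD-1-resistant lung adenocarcinoma cells carrying a short hairpin RNA against Fabp7, which encodes a fatty acid binding protein. In the other (Res-ctrl, 3 libraries), the tumour cells were control cells of the same resistant kind. Tumour and T cells of both groups were held apart by a membrane with 0.4 µm pores, so the knockdown was not in the cells that were profiled. The labels used here state neither mouse strain and age nor the number of tumour clones, nor whether the biological replicates came from separate mice.

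NF-kappaB is a family of dimeric transcription factors built from the 5 subunits. In resting T cells the dimers are held in the cytoplasm by inhibitor proteins. Signals from the T cell receptor and CD28 activate the IkappaB kinase, the inhibitor encoded by Nfkbia is degraded, and dimers containing the products of Rela and Rel enter the nucleus. Nfkb1 and Nfkb2 encode precursors that are processed to DNA-binding subunits, and Relb acts mainly in the slower non-canonical branch. Nfkbia and Tnfaip3 are themselves induced by NF-kappaB and limit the response: Tnfaip3 encodes a ubiquitin-editing enzyme that restrains signalling upstream of the kinase. Nfkbiz encodes a nuclear member of the inhibitor family that binds NF-kappaB on DNA and modifies transcription of selected genes.

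The promoters are shown first because each was open in all 6 libraries and most hold the sequence that the family itself binds. RefSeq promoter sequences (build GRCm38.p6, the primary assembly of mm10) matched 5 of the 8 genes: Nfkb2, Rel, Rela, Nfkbia and Tnfaip3. The 250 bases before the most upstream listed start of each are printed 5′ to 3′ on the strand of the gene, with matches to the 10-base kappaB consensus in capitals. They lie at chr19:46304487-46304736 (plus strand) for Nfkb2, chr11:23770970-23771219 (minus strand) for Rel, chr19:5637291-5637540 (plus strand) for Rela, chr12:55492648-55492897 (minus strand) for Nfkbia and chr10:19015411-19015660 (minus strand) for Tnfaip3.
Nfkb2: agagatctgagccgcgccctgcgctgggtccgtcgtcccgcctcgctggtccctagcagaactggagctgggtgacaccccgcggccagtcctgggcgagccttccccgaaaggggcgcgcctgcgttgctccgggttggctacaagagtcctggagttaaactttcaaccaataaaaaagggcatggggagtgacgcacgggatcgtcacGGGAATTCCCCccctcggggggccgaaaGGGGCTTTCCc
Rel: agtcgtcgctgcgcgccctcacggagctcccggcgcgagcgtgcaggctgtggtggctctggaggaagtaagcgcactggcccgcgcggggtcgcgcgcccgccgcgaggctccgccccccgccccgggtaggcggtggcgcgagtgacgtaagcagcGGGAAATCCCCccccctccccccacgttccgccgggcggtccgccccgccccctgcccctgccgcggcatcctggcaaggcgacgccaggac
Rela: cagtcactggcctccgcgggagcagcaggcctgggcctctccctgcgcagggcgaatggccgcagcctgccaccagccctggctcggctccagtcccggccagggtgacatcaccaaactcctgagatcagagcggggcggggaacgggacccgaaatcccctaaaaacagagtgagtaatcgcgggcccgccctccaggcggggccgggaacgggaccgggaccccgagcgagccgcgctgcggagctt
Nfkbia: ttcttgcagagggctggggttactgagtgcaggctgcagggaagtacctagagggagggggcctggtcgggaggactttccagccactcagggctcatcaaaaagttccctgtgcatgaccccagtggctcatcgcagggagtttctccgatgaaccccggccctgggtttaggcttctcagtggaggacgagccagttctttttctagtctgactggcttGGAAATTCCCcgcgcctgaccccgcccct
Tnfaip3: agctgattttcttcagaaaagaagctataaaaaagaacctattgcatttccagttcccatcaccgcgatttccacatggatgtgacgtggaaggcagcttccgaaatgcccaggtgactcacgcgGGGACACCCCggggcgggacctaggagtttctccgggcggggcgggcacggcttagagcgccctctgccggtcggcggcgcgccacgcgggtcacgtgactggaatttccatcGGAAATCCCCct

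With the other starts of Nfkb2 and Tnfaip3 there were 8 RefSeq promoters, and 6 of them held a match to the kappaB consensus on either strand within the window from 250 bases before to 50 after the start. The share among all 32851 mouse promoters of the same length was 4.51%, and among the 11765 promoters overlapped by a peak in every library it was 5.24%. In Tnfaip3 the matches lay 125 to 116 and 12 to 3 bases before the start. In Rel, overlapping matches filled the stretch from 92 to 82 bases before the start, and in Nfkbia 1 match lay 29 to 20 bases before it. The first start of Nfkb2 had overlapping matches between 39 and 29 bases and another from 11 to 2 bases before it, and its other 2 promoters held matches as well, 1 of which lies where these windows overlap and is counted in both. Rela and the second start of Tnfaip3 had no match. The AP-1 motif TGANTCA, searched on both strands, was found in 2 of the 8 promoters against 7.81% of all promoters. The CRE-like motif TGACGTCA was found in 0 of 8 against 1.79%. None of the AP-1 matches overlapped a kappaB match. A match is a string of letters in this window and does not show that a factor was bound.

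The folds of the peaks over these promoters overlapped between the groups at all 5 genes. The fold of a peak, as given by the authors' peak caller, is the ratio of its summit to the local background. At the Tnfaip3 start (chr10:19014804-19015879) the folds were 16.4, 16.8 and 16.2 in Res-shFabp7 libraries and 16.1, 16.5 and 15.5 in Res-ctrl libraries, and the summit lay 137 or 138 bases before the start in all libraries but Res-ctrl replicate 1. At the Nfkbia start (chr12:55491765-55492902) they were 10.2, 10.3 and 9.63 with Res-shFabp7 and 9.95, 10.2 and 9.99 with Res-ctrl. Both inhibitor promoters overlapped between the groups by fold. By rank of pileup among regions called in all 6 libraries, the Tnfaip3 start was separate, at percentiles 91, 89.6 and 89.8 with Res-shFabp7 and 88.4, 89.3 and 88 with Res-ctrl. This difference did not pass the test (limma adjusted p = 0.619). The Rel start was separate upward by pileup as well (limma adjusted p = 0.237). Of all regions called in all 6 libraries, 11.6% were separate in this direction. For the subunits, the Nfkb2 start (chr19:46304211-46305200) had folds of 14.6, 17.7 and 15.4 with Res-shFabp7 and 15.6, 14.5 and 16.7 with Res-ctrl, with a summit 127 bases before the start in all 6 libraries. The Rela start (chr19:5636969-5638062) had 14.0, 14.6 and 15.6 with Res-shFabp7 and 14.5, 13.7 and 16.2 with Res-ctrl. The Rel start (chr11:23770579-23771657) had 14.8, 15.5 and 16.2 with Res-shFabp7 and 15.1, 11.4 and 13.7 with Res-ctrl. Among these subunits the widest spread was at Rel, where Res-ctrl replicate 2 was lowest. The second start of Tnfaip3, inside the gene, carried weaker peaks with folds of 2.93, 3.83 and 3.49 in Res-shFabp7 libraries and 3.01 and 3.13 in Res-ctrl replicates 1 and 3, and Res-ctrl replicate 2 had no peak there.

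**Figure D1:**
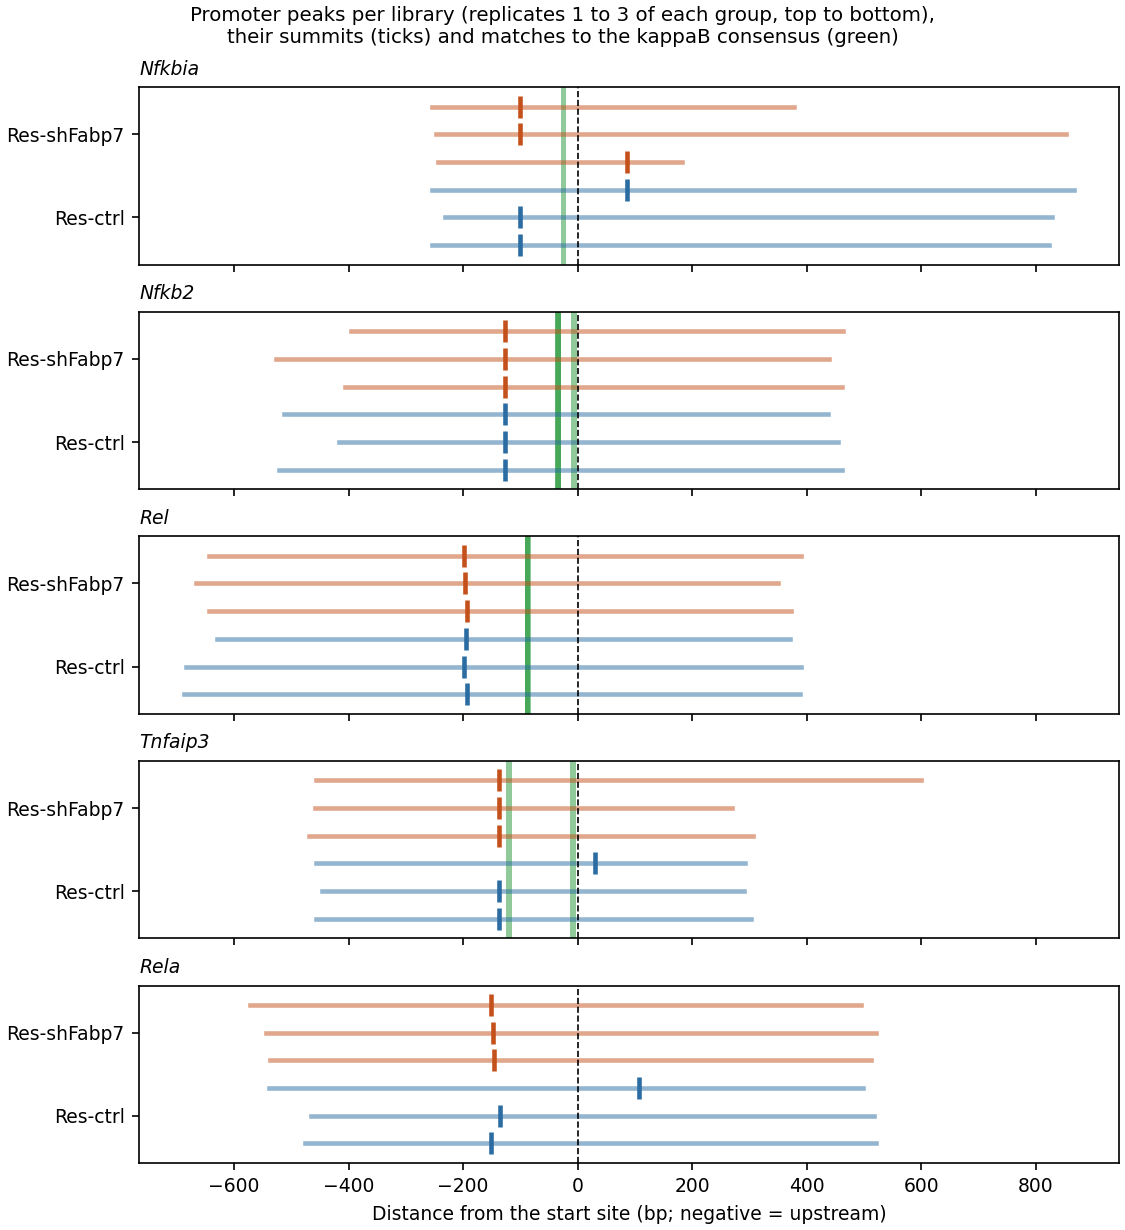
Peaks over the promoters of 5 NF-kappaB genes in each library. The x axis is the distance from the start site in bp; horizontal bars are peaks of Res-shFabp7 libraries (orange) above those of Res-ctrl libraries (blue), ticks are summits and green bands are matches to the kappaB consensus, of which Rela has none. The Nfkb2 summit lies 127 bases before the start in all 6 libraries.

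The libraries differed in how many peaks were called, which touches every count that follows. The length of a list was 104575, 105796 and 100243 peaks with Res-shFabp7, against 84844, 82153 and 96310 with Res-ctrl. A relative measure of depth, the commonest background pileup of a list, was 1.03, 0.868 and 0.959 with Res-shFabp7 and 0.709, 0.608 and 1.01 with Res-ctrl. Read depth per library is unknown. The genes listed as CD8 T cell markers were Cd3e, Cd3g, Cd8a, Cd8b1, Bcl11b, Runx3, Thy1 and Cd28. Some of them, such as Cd3e, mark T cells in general. All 8 listed genes had a region in all 6 libraries, from 3 to 37 each and 137 in total. Both CD4 T cell markers had such regions as well, so these markers do not tell CD8 from CD4 T cells. Among markers of other cells, Cd79a and Ms4a1 (B cells), Csf1r (myeloid cells), Ncr1 (NK cells) and Krt8, Sftpc and Nkx2-1 (lung epithelium) had no such region, while 2 of 4 B cell, 3 of 4 myeloid, 1 of 2 NK and 1 of 4 lung epithelial markers had at least 1. Summed peaks at the 4 lung epithelial markers were 10, 11 and 10 with Res-shFabp7 and 6, 7 and 5 with Res-ctrl, and at the 4 B cell markers 10, 7 and 6 with Res-shFabp7 and 6, 5 and 6 with Res-ctrl. The CD8 T cell sums were higher in every Res-shFabp7 library too, at 208, 207 and 212 against 195, 170 and 199. Those of the B cell, CD4 T cell, myeloid and NK markers overlapped between the groups. All are raw counts from lists that were longer with Res-shFabp7. The part of other cells in the results was not tested. In bulk libraries, more cells with an open region and more opening per cell cannot be told apart.

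More peaks were called at the 8 genes with Res-shFabp7, but the genes' share of all peaks overlapped between the groups. The genes held 156, 141 and 145 peaks in Res-shFabp7 libraries and 114, 111 and 126 in Res-ctrl libraries (147.3 ± 7.77 and 117 ± 7.94, SD, n = 3 each). The groups were separate (exact permutation test, two-sided p = 0.1; no smaller p can be reached with 3 libraries a group). Per 1000 peaks of the library the values were 1.49, 1.33 and 1.45 with Res-shFabp7 and 1.34, 1.35 and 1.31 with Res-ctrl, a difference of 0.0893 in the means, and here the groups overlapped (exact permutation p = 0.3). Res-shFabp7 replicate 2 lay among the Res-ctrl libraries.

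Peak counts as deposited were separate between the groups at Tnfaip3, Nfkbiz and Nfkbia and overlapped, at Nfkb1 through 1 tie, at the other 5 genes. Tnfaip3 had 36, 34 and 34 peaks with Res-shFabp7 and 24, 24 and 30 with Res-ctrl. Nfkbiz had 26, 25 and 21 with Res-shFabp7 and 20, 15 and 17 with Res-ctrl. Nfkbia had 17, 18 and 16 with Res-shFabp7 and 13, 14 and 14 with Res-ctrl. All 3 inhibitors were thus higher in every Res-shFabp7 library than in any Res-ctrl library, each with an exact permutation p of 0.1. Such separation upward was seen at 13.3% of the 11660 genes with a mean of at least 2 peaks, and downward at 0.566%. Of the subunits, Nfkb1 had 52, 40 and 49 peaks with Res-shFabp7 and 34, 39 and 40 with Res-ctrl, so that replicate 2 of Res-shFabp7 equalled replicate 3 of Res-ctrl. This tie was lost at a q of 0.01, where Nfkb1 had 51, 40 and 49 with Res-shFabp7 and 34, 39 and 39 with Res-ctrl. Within 20 kb Nfkb1 was separate too, at 40, 32 and 37 with Res-shFabp7 and 27, 31 and 31 with Res-ctrl, whereas Nfkbiz overlapped there, at 14 in each Res-shFabp7 library and 14, 9 and 14 with Res-ctrl. At a q of 0.001 Nfkb1 overlapped, at 51, 36 and 47 with Res-shFabp7 and 33, 39 and 39 with Res-ctrl. Which of these genes were separate by raw count therefore depended on the setting. The share of all genes that were separate was not taken at either q or within 20 kb. Rel had 14, 11 and 15 with Res-shFabp7 and 12, 10 and 15 with Res-ctrl. Rela had 5, 6 and 3 with Res-shFabp7 and 3 in each Res-ctrl library. These 3 subunit genes overlapped between the groups, as did Nfkb2, with 4 peaks in each Res-shFabp7 library and 5, 3 and 4 with Res-ctrl, and Relb, with 2, 3 and 3 with Res-shFabp7 and 3 in each Res-ctrl library.

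Tnfaip3 was also separate once the length of the lists was taken into account. Its peaks per 1000 of the library were 0.344, 0.321 and 0.339 with Res-shFabp7 and 0.283, 0.292 and 0.311 with Res-ctrl (0.3349 ± 0.012 and 0.2955 ± 0.0146, SD, n = 3 each; exact permutation p = 0.1). By this measure 7.8% of genes were separate upward and 14.7% downward. Relb was separate downward, at 0.0191, 0.0284 and 0.0299 with Res-shFabp7 and 0.0354, 0.0365 and 0.0311 with Res-ctrl, although only 1 library differed from the rest in its count. The other 6 genes overlapped per 1000 peaks. Leaving out 1 library made 5 of them separate in 1 or 2 of the 6 cases. Separation with 1 library fewer is a looser rule, and the share of all genes that meet it was not taken, so these cases have no background. The values that follow are only those of the cases that became separate. In other cases differences shrank, such as to 0.00319 for Nfkb1 without Res-shFabp7 replicate 1 and 0.00229 for Nfkbia without Res-ctrl replicate 3. The difference of Nfkb1 became 0.0628 without Res-shFabp7 replicate 2, against 0.0245 with all libraries, and that of Rela 0.0179 without Res-shFabp7 replicate 3, against 0.0105. Nfkbiz had 0.0442 without Res-shFabp7 replicate 3 and 0.0519 without Res-ctrl replicate 1, against 0.0332. Without Res-ctrl replicate 2, Nfkbia had 0.0148, against 0.00777, and Nfkb2 -0.0116, against -0.00701. With each list cut to its 82153 strongest peaks, the length of the shortest list, Tnfaip3 kept 27, 25 and 29 peaks with Res-shFabp7 and 23, 24 and 23 with Res-ctrl and was still separate. At that equal length 3.08% of genes were separate upward and 3.26% downward. The other 7 genes overlapped, among them Nfkbia with 14 in each Res-shFabp7 library and 12, 14 and 14 with Res-ctrl, and Nfkbiz with 17, 18 and 16 with Res-shFabp7 and 18, 15 and 15 with Res-ctrl. Counting peaks within 20 kb only, Tnfaip3 had 12, 12 and 14 with Res-shFabp7 and 8, 6 and 11 with Res-ctrl, and its peaks per 1000 overlapped.

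**Figure D2:**
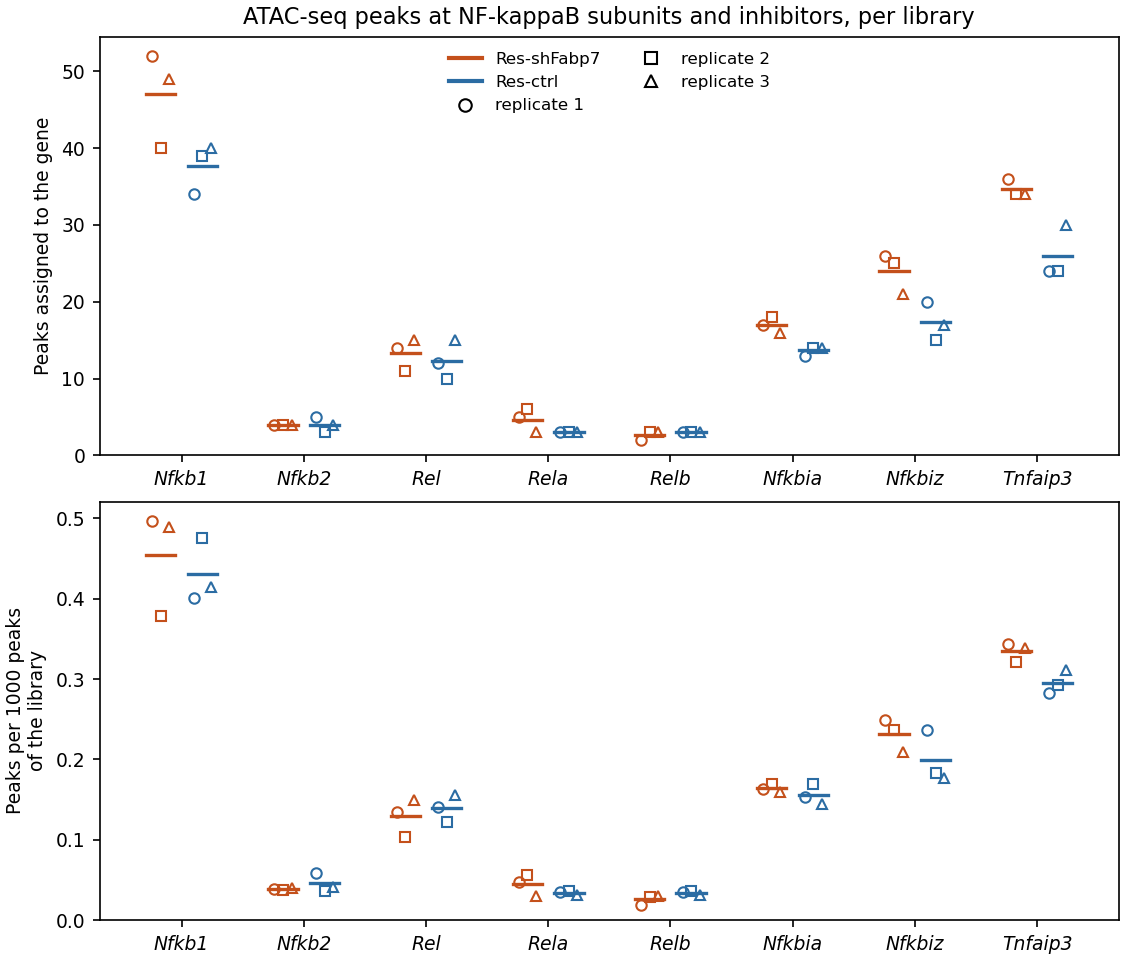
Peaks assigned to each of the 8 genes per library, as counts (top) and per 1000 peaks of the library (bottom). Points are libraries (circle, square and triangle for replicates 1 to 3), bars are group means, with Res-shFabp7 (orange) left of Res-ctrl (blue). Tnfaip3 has 34 to 36 peaks with Res-shFabp7 and 24 to 30 with Res-ctrl, and stays separate per 1000 peaks.

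The 187 regions were unevenly spread over the genes, and the share called in every library was close to that of the whole series. Of them, 77 (41.2%) were called in all 6 libraries, against 42.2% of all regions, and 47 (25.1%) in 1 library only, against 23.3%. Nfkb1 (chr3:135584655-135691969) had 58 regions and ranked 124th of all genes by this number, and Tnfaip3 (chr10:19000910-19015410) had 50 and ranked 183rd. Nfkbiz (chr16:55811375-55838954) had 30, Rel (chr11:23736847-23770969) 22 and Nfkbia (chr12:55489409-55492647) 16. The short loci were Rela (chr19:5637442-5648134) with 5, Nfkb2 (chr19:46300994-46312400) with 4 and Relb (chr7:19606217-19629438) with 2. The regions of Nfkb1 lay mostly within its long gene body, 37 inside and 21 outside. Those of Tnfaip3 lay around it, with 19 upstream, 5 inside and 26 downstream. Nfkbia likewise had 1 region inside and 15 outside, and 12 of its 16 regions were called in all 6 libraries, against 16 of 50 at Tnfaip3 and 9 of 30 at Nfkbiz.

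**Figure D3:**
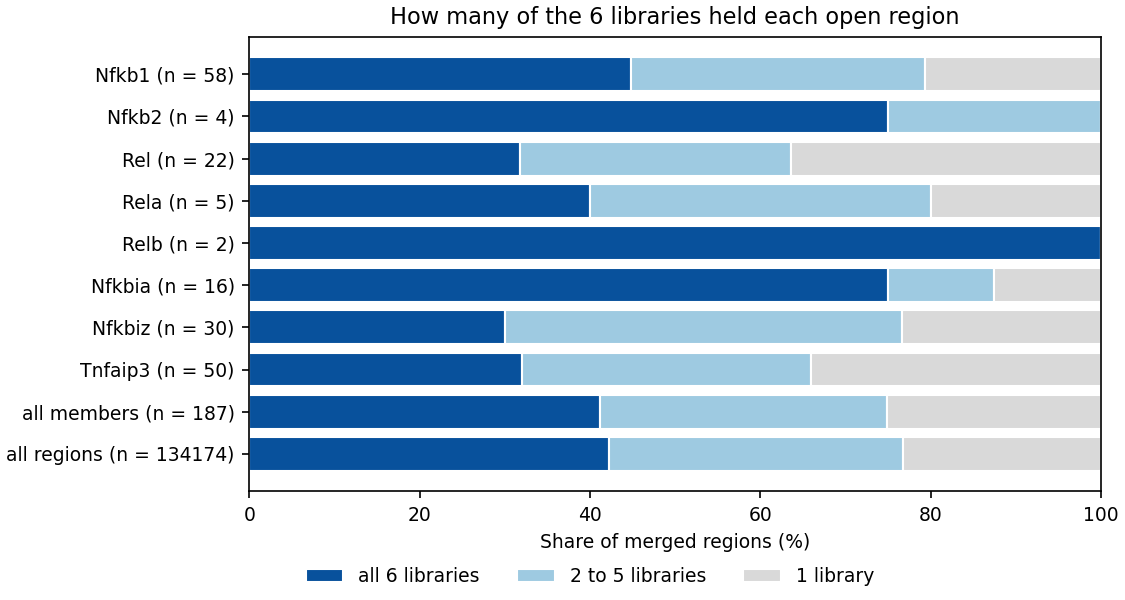
Share of merged regions, in percent, that were called in all 6 libraries, in 2 to 5 or in 1, for each gene, for the 8 genes together and for all 134174 regions. The 8 genes together (41.2% in all 6 libraries) resemble the whole series (42.2%), while Nfkbia has 12 of 16 regions in all 6 libraries and Tnfaip3 16 of 50.

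The best supported region of each gene was taken as the one whose lowest −log10 q over the 6 libraries was highest, so that by this choice it was called in both groups. For the inhibitor Tnfaip3 it was not the promoter but chr10:19062035-19062836, 47025 bp upstream, with folds of 19.5, 21.4 and 21.0 in Res-shFabp7 libraries and 20, 21.0 and 18.9 in Res-ctrl libraries. For Nfkbiz it was chr16:55821670-55822666 inside the gene body, with folds of 16.0, 15.2 and 14.8 with Res-shFabp7 and 16.6, 17.0 and 17.8 with Res-ctrl. Here every Res-ctrl library was higher by fold, but the share of all regions separate by fold was not taken. By rank of pileup the groups overlapped at this region. For Nfkbia it was the promoter region given above. Among the subunits with a matched promoter (Nfkb2, Rel and Rela), the promoter was best supported for Nfkb2 and Rel. For Nfkb1 it was chr3:135665513-135666306 inside the gene body, with folds of 21.0, 20.4 and 18.8 with Res-shFabp7 and 21.2, 20.8 and 21.3 with Res-ctrl. For Rela it was chr19:5648619-5649401, 876 bp downstream of the gene, at 33.4, 29.0 and 32.0 with Res-shFabp7 and 30.6, 32.9 and 34.6 with Res-ctrl. For Relb it was chr7:19628443-19629620, at 24.8, 23.7 and 23.2 with Res-shFabp7 and 22.3, 23.4 and 23.7 with Res-ctrl. Its lowest −log10 q, 282, was the highest such value of the 8 genes. The midpoint of this region lay inside the gene body, but the region reached past the end with the higher coordinate, 19629438. No promoter or strand was matched for Relb, so whether the region holds its start is not settled here. By fold the groups overlapped at Rela and Relb, and at Nfkb1 in Res-shFabp7 replicate 1 alone. By rank of pileup the region of Relb was separate and lower, with normal scores of 2.153, 2.059 and 2.162 with Res-shFabp7 and 2.174, 2.331 and 2.24 with Res-ctrl (limma adjusted p = 0.514).

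Regions that were called in 3 of 3 libraries of 1 group and in 0 of 3 of the other numbered 6 with Res-shFabp7 and 0 with Res-ctrl. Over all regions of the series the shares were 2.28% with Res-shFabp7 alone and 0.155% with Res-ctrl alone, and the 6 regions make up 3.21% of the 187. With lists of equal length 3 of 146 regions were called with Res-shFabp7 alone, all at Tnfaip3, against 1.13% of all regions, and 0 with Res-ctrl alone, against 0.524%. For a single region, an exact test of 3 against 3 libraries cannot go below 0.1.

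At Tnfaip3 there were 3 such regions, all weak beside its main regions. The one inside the gene body, chr10:19008700-19008821, had folds of 4.54, 4.82 and 3.89 in the Res-shFabp7 libraries. The one 62848 bp upstream, chr10:19078133-19078383, had 5.92, 8.56 and 9.19. Both were specific with equal lists as well. The third, chr10:18993010-18993310, lay 7750 bp downstream with 5.45, 4.27 and 6.85 and was not specific with equal lists. In its place chr10:18987901-18988121, 12899 bp downstream, became specific: it had folds of 9.49, 5.62 and 7.95 with Res-shFabp7 and 4.44 in Res-ctrl replicate 3. The strong upstream regions were in every library: chr10:19104577-19105346, 89551 bp upstream, had folds of 33.1, 32.2 and 32.4 with Res-shFabp7 and 32.9, 27.2 and 31.4 with Res-ctrl.

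The other 3 such regions lay at subunit genes. At Nfkb1, chr3:135711734-135711900 had folds of 5.45, 4.74 and 4.43 in the Res-shFabp7 libraries and lay 19848 bp beyond the end of the gene body with the higher coordinate. The other, chr3:135720054-135720256, lay 28186 bp beyond it with 3.2, 2.61 and 3.51. At Rel, chr11:23741514-23741677 inside the gene body had folds of 7.6, 3.59 and 4.31. None of these 3 was specific with equal lists. Leaving out Res-ctrl replicate 3, the longest Res-ctrl list, raised the number of regions called with Res-shFabp7 alone to 12 (6.67% of the regions of the 8 genes, against 5.34% of all regions), of which 6 were at Tnfaip3 and 4 at Nfkb1. Without Res-shFabp7 replicate 2 the number was 11 (6.04%, against 4.1% of all), and without Res-shFabp7 replicate 3 it was 10 (5.62%, against 4.43%).

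**Figure D4:**
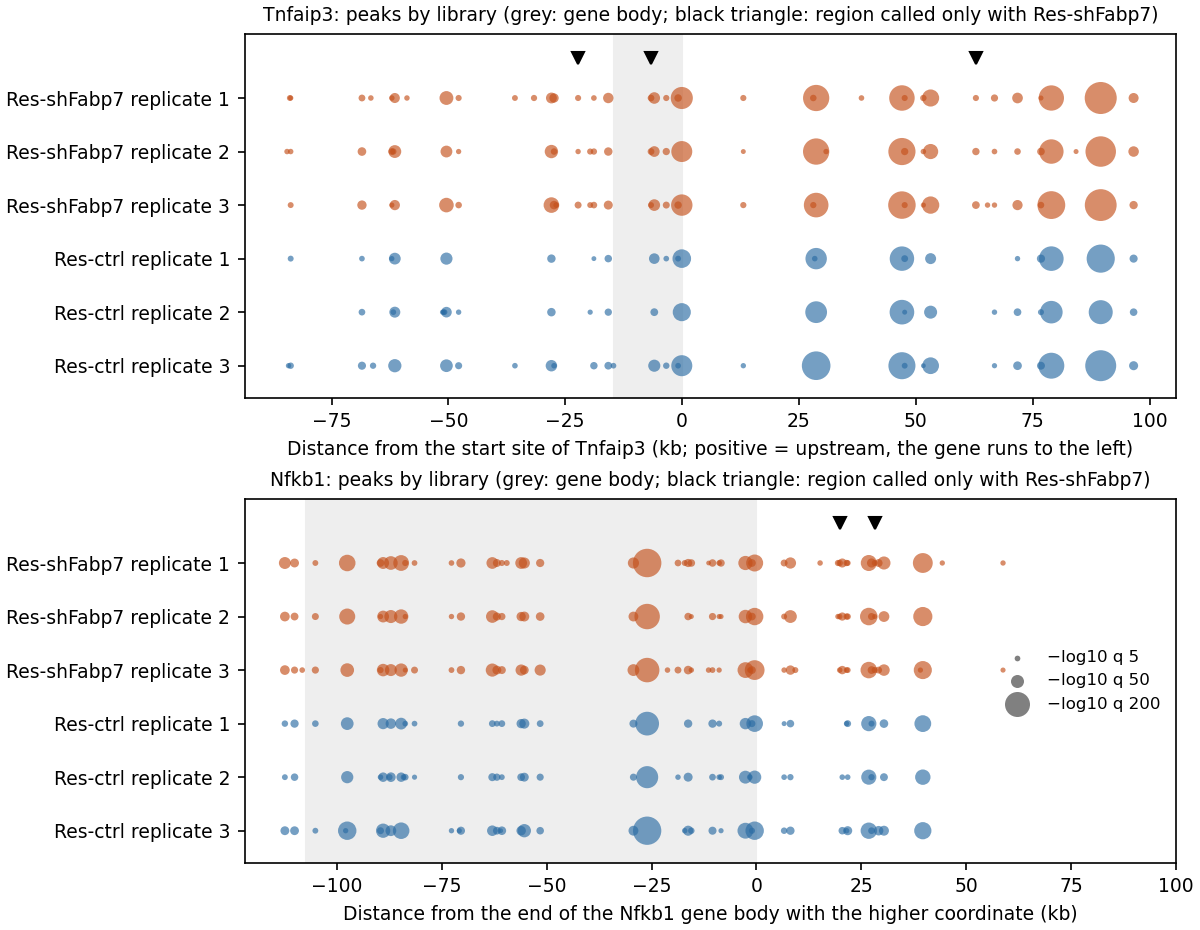
Regions held by each library around Tnfaip3 (top, x axis in kb from its start site, positive upstream) and Nfkb1 (bottom, x axis in kb from the end of the gene body with the higher coordinate). Each point is a region with a peak in that library, its area growing with −log10 q; grey marks the gene body and triangles the 3 and 2 regions called with Res-shFabp7 alone. The large points recur in all 6 libraries, and the triangles stand over small ones.

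Peak heights at the 77 regions called in all 6 libraries did not differ past the threshold at any of the 8 genes. Within each library the pileup, the coverage at the summit, was ranked over the 56610 regions called in all 6 libraries and turned into normal scores, which were compared with limma and Benjamini-Hochberg adjustment over all 56610. Calls at adjusted p below 0.05 numbered 0 of 77 in either direction, against 0.00177% of all regions higher and 0.0% lower with Res-shFabp7, and the lowest adjusted p of the 77 was 0.123. At an unadjusted p below 0.05, 12 of the 77 were higher and 4 lower, against 8.27% and 7.4% of all regions. The groups did not overlap at 16 regions that were higher and 6 that were lower, against 11.6% and 11.2% of all. The median difference in score was 0.0502 over the 77 and -0.0105 over all regions, with 51 of the 77 (66.2%) above 0, against 47.8% of all regions. By rank of fold in place of pileup the median of the 77 was -0.0436, against -0.0244 over all regions, so the direction of the median depended on the measure of height.

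By pileup, most regions of Nfkb1 and Rel were higher with Res-shFabp7, which for Nfkb1 did not hold by fold. At Nfkb1, 21 of 26 regions were higher with Res-shFabp7 (median difference in score 0.154), and at 10 of them the groups did not overlap, against 2 in the lower direction. By rank of fold 10 of the 26 were higher and the median was -0.0528. Over all regions, the groups did not overlap by pileup at 11.6% in the higher and 11.2% in the lower direction, and 47.8% were higher. The share higher by fold was not taken over all regions, whose median by fold was -0.0244. Regions of 1 gene come from the same 6 libraries and are not replicates. At Rel, 6 of 7 were higher by pileup (median 0.292) and 5 of 7 by fold (median 0.163), and at 3 the groups did not overlap by pileup. Relb had both of its regions lower by pileup and 1 of 2 by fold, and Nfkb2 and Rela had medians of -0.00421 and -0.0243 by pileup and -0.179 and -0.125 by fold. Of the inhibitors, Tnfaip3 had 11 of 16 regions higher by either measure (median 0.0614 by pileup and 0.155 by fold). Nfkbiz had 6 of 9 higher by pileup (median 0.0929) and 3 of 9 by fold (median -0.0436). Nfkbia had 5 of 12 higher by pileup (median -0.0103) and 2 of 12 by fold (median -0.168), with 3 regions lower without overlap by pileup and 0 higher. Leaving out 1 library moved the medians by pileup of these 3 genes. Without Res-ctrl replicate 3, Nfkbia turned to 7 of 12 higher (median 0.0378) and Nfkbiz had a median of 0.00788, and over the 6 cases the lowest and highest medians were 0.029 and 0.111 for Tnfaip3, 0.00788 and 0.132 for Nfkbiz and -0.044 and 0.0378 for Nfkbia. None of these passed the test across all regions, and a difference between the genes was not tested.

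For the 3 regions with the smallest p, heights are given as percentiles of pileup among the 56610 regions of that library. At Rel, chr11:23734906-23735297, 1746 bp downstream, stood at percentiles 9.38, 7.49 and 18.1 with Res-shFabp7 and 1.47, 2.07 and 1.53 with Res-ctrl. The difference in score was 0.903 (SE 0.149, limma adjusted p = 0.123), and all 3 Res-shFabp7 libraries were higher. At Nfkbia, chr12:55506057-55506206, 13484 bp upstream, stood at 1.07, 4.42 and 2.26 with Res-shFabp7 and 15.6, 10.1 and 13.1 with Res-ctrl. Its difference was -0.866 (SE 0.166, limma adjusted p = 0.14), lower in all 3 Res-shFabp7 libraries. At Nfkb1, chr3:135699748-135700378, 8094 bp beyond the end with the higher coordinate, stood at 44.8, 56.8 and 34.3 with Res-shFabp7 and 20.8, 10.1 and 20 with Res-ctrl, a difference of 0.856 (SE 0.191, limma adjusted p = 0.162). All 3 regions kept their direction by rank of fold, with differences of 0.567 at Rel, -0.606 at Nfkbia and 0.558 at Nfkb1. Fold comes from the same peaks and the regions were picked by p, so this is not separate support. At Nfkbia the folds themselves overlapped, at 5.43, 6.96 and 6.12 with Res-shFabp7 and 8.19, 6.84 and 9.47 with Res-ctrl. The regions at Rel and Nfkbia were weak, with a lowest −log10 q of 3.12 and 5.62. Among promoters, the one of Rel differed most, at percentiles 92.4, 93.4 and 93.3 with Res-shFabp7 and 90.5, 85.2 and 88.7 with Res-ctrl (difference in score 0.292, SE 0.0947, limma adjusted p = 0.237). The promoter of Nfkbia stood at 96.1, 96.2 and 94.9 with Res-shFabp7 and 95.4, 95.9 and 96.0 with Res-ctrl, and its groups overlapped.

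**Figure D5:**
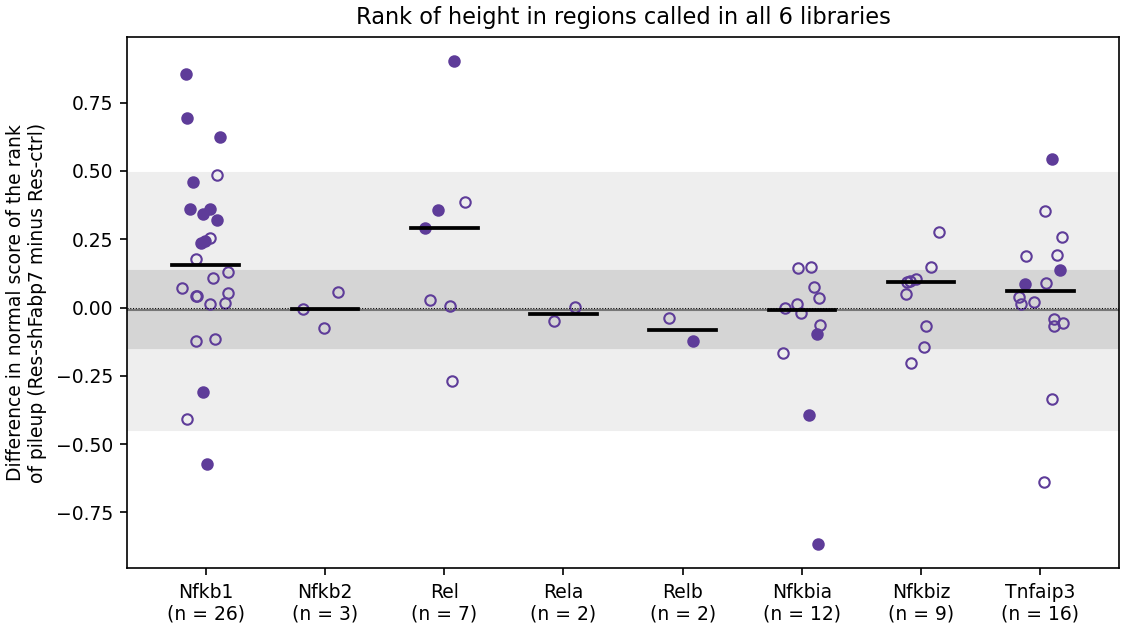
Difference in the normal score of the rank of pileup (Res-shFabp7 minus Res-ctrl) for each region called in all 6 libraries. Points are regions, filled where the groups do not overlap, bars are medians per gene, and the grey bands hold the central 50% and 90% of all 56610 regions. Nfkb1 has 21 of 26 points above 0 (10 of 26 by rank of fold, not drawn) and Nfkbia 5 of 12.

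The other genes of the pathway were described from a list of 34 kinases, adaptors, ubiquitin enzymes and further inhibitors, all of which matched the gene table. They held 385, 378 and 382 peaks with Res-shFabp7 and 335, 331 and 362 with Res-ctrl, or 3.68, 3.57 and 3.81 per 1000 peaks with Res-shFabp7 and 3.95, 4.03 and 3.76 with Res-ctrl (exact permutation p = 0.2, groups overlapping). Of their 484 regions, 231 (47.7%) were called in all 6 libraries, 9 (1.86%) with Res-shFabp7 alone and 1 with Res-ctrl alone, against 42.2%, 2.28% and 0.155% of all regions. The share with Res-shFabp7 alone was thus no larger than in the whole series. Prkcq, which encodes the protein kinase C isoform that links the T cell receptor to NF-kappaB, had 57 regions in all 6 libraries and 3 with Res-shFabp7 alone. Tax1bp1, a partner of the Tnfaip3 protein, had 2 regions with Res-shFabp7 alone. Traf3, an adaptor that restrains the non-canonical branch, had 11 in all 6 libraries and the 1 region with Res-ctrl alone, chr12:111182484-111182620 inside the gene body, with folds of 3.72, 4.59 and 3.75. Ikbkb, Map3k7 and Traf6 were among the genes with 1 region with Res-shFabp7 alone.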

How the data were processed

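ATAC-seq, in which a transposase inserts adapters into open DNA, was run on T cells of 2 groups with 3 libraries each. The submitters' processing notes name MACS2 2.2.7.1, Bowtie 1.1.2, cutadapt 2.8, Trim Galore 0.6.5 and build mm10. Handling of the transposase offset, duplicates and peak caller settings: not given in the sources used here. For each library the authors deposited a peak list of its own, with a q threshold of 0.05. Each deposited list gives the p-value and q-value as −log10, the pileup (coverage signal at the summit) and the fold (a ratio to the local background); these are the authors' values and are not on a common scale across libraries.

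Starts and summits were converted to count from 1. Genes came from a RefSeq table of GRCm38.p6 that lists no strand or exons; strand came from RefSeq promoters. Peaks overlapping by at least 1 bp were merged, and a region was assigned by its midpoint, which gave the same 187 regions as the summits. Depth was gauged from the background implied by pileup and fold, taking the fold as a ratio with 1 added above and below, which was inferred from the values. Values per library were set against each other with exact permutation tests (two-sided), and ranks of pileup with limma 3.58.1 in R 4.3.3; everything else used Python 3.11.15. The scripts were tested on simulated data. Replicate numbers were not treated as pairs outside the replicate block, and whether they stand for a shared mouse or culture is not known. P-values refer to these libraries only: the permutation test compares relabellings of them, and limma sets a difference against their spread within groups. A shallower library yields fewer weak peaks. Alternatives were a q of 0.01 or 0.001, equal numbers of peaks, 20 kb, other ways of merging and assigning, other measures of height, each library left out and a replicate block.

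The members, the pathway list and the tests were chosen with earlier results of these data known. Named singly were, per gene, the best supported region and the one at the start; all group-specific regions; the 3 smallest p-values of heights; and, of the pathway list, up to 3 genes per direction by number of group-specific regions and the 3 with the most regions in all 6 libraries, ties in alphabetical order. The result of 1 pathway gene is not reported here. Other regions of Tnfaip3 were picked after their values were seen.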

Additional observations from a re-analysis of the deposited data

How the results depend on the processing

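The difference in peaks per 1000 at the 8 genes was positive under all 12 alternatives, none of which can reach a p below 0.1. It was 0.0351 within 20 kb, 0.0933 with equal numbers of peaks and 0.0553 to 0.135 leaving out 1 library. With a replicate block it was 0.0893 (exact sign-flip p = 0.5, and 3 pairs cannot go below 0.25). The block keeps the difference in means by construction, and its replicate 2 was lower with Res-shFabp7 (1.33) than with Res-ctrl (1.35). Leaving out ties in the assignment could not change the value, as 0 peaks of the 8 genes were tied. Cases with 1 library left out reuse the same values, so the 12 signs are not separate support. At Tnfaip3 the difference was 0.0331 to 0.0474 leaving out 1 library. Its groups stayed separate, as separate groups must when a library is left out. By deviation of the rank of pileup from the group mean, same-numbered libraries correlated at -0.0245, 0.015 and -0.0158. Pairs with different numbers correlated at -0.0358 to 0.0514. No pairing showed in these values, but they cannot tell whether same-numbered libraries shared a mouse or culture. Regions called with Res-shFabp7 alone numbered 6 (3.21%, against 2.28% of all regions). They numbered 7 at a q of 0.01 (3.76% against 2.3%), 4 at 0.001 (2.26% against 2.23%), 4 within 20 kb (3.57% against 2.28%), 6 merging across 200 bp (3.9% against 2.48%), 5 requiring peaks to cover 50% of a region (2.67% against 2.82%) and 3 with equal numbers of peaks (2.05% against 1.13%). The share was thus near or below that of all regions at a q of 0.001 and with 50% cover. Leaving out 1 library gave 7 to 12, a looser rule by construction. Regions with Res-ctrl alone numbered 0 to 1 leaving out 1 library (1 without Res-ctrl replicate 1 or 2) and 0 otherwise. Height calls were 0 in both directions under all 10 alternatives, the replicate block included; over all regions 1 was called in the main fit and 0 in each alternative. Unadjusted p below 0.05 gave 5 higher and 9 lower regions by rank of fold, 13 and 7 by quantile-normalised pileup, 9 and 5 by rank of −log10 q and 14 and 3 with the replicate block. The shares of all regions were not taken under these settings, so these counts have no background to be read against. Weak peaks depend on depth, so a missing peak is not absence of opening.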
